A study of Mus musculus with 19 samples.

Results

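The 10 growth factor and receptor genes studied here belong to the spermatogonial niche, and were examined for SOX3 occupancy in mouse testis at postnatal day 7. They were 5 ligands (Gdnf, Kitl, Csf1, Cxcl12 and Fgf2) and 5 receptors (Gfra2, Kit, Csf1r, Cxcr4 and Fgfr1), chosen by name from 26180 RefSeq genes with a curated transcript. For each gene, every SOX3 ChIP-seq peak was taken that lay within 2 kb of a start site (the promoter), elsewhere in the gene body, or within 50 kb of either gene end (the flank). The 8 genes Kitl, Gdnf, Fgfr1, Csf1, Cxcr4, Kit, Cxcl12 and Fgf2 carried promoter peaks that overlapped between the replicates. Csf1r had a weak promoter peak in replicate 2 alone, and Gfra2 had none in either replicate.

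SOX3, a DNA-binding protein of the HMG-box family, is made by undifferentiated spermatogonia, the germ cells that include the spermatogonial stem cells. ChIP-seq recovers the DNA bound by a protein with an antibody, and peaks mark where the ChIP reads exceed the input. The data were 2 biological replicates of SOX3 ChIP-seq and 2 of SOX3 ChIP-nexus, a variant in which an exonuclease trims the bound DNA. The labels named 19 samples, and the other 15 were not analysed here. All 4 libraries came from testis at postnatal day 7, with no treatment named. The labels list 2 SOX3 antibodies for every library without saying which of them a library used. The study's methods describe seminiferous tubules pooled from several mice of about this age, on the C57BL/6J background, after removal of the tunica albuginea. No genotype is given in the labels of these samples, and no group without SOX3 or with another treatment was analysed. The 2 replicates therefore allowed no test between groups, and every value below is a description.

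The stem cell niche of the seminiferous tubule keeps spermatogonia through secreted factors that act on receptors at the germ cell surface. GDNF, from Sertoli and peritubular cells, signals through GFRA1 and RET to maintain stem cells, and GFRA2 is the related co-receptor preferred by neurturin. KITL (stem cell factor) acts on the tyrosine kinase KIT of differentiating spermatogonia, CSF1 on CSF1R, the chemokine CXCL12 on CXCR4, and FGF2 on FGF receptors such as FGFR1. The ligands are made largely by somatic cells, whereas SOX3 is a germ cell protein. The chromatin came from mixed tubule cells, so the cell type that gave a peak cannot be told apart.

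The peaks sat in promoters of differing base composition, and the 250 bp upstream of 4 ligand start sites are shown to compare the strongest promoters with a weak one. The sequences are RefSeq promoters on GRCm38.p6, from a promoter set that held 9 entries for 7 of the 10 genes. Gfra2, Fgfr1 and Csf1r have annotated RefSeq start sites but had no entry in this set, so the word search upstream of start sites did not cover them. Each is written 5′ to 3′ and ends at the base before the start site. Capitals mark the words searched on both strands: AACAAT and AACAAAG (words bound by SOX proteins, the second sharing letters with TCF/LEF sites), GGGCGG (the GC box), CCAAT and TATAAA.
Kitl upstream, chr10:100015571-100015820 (plus strand): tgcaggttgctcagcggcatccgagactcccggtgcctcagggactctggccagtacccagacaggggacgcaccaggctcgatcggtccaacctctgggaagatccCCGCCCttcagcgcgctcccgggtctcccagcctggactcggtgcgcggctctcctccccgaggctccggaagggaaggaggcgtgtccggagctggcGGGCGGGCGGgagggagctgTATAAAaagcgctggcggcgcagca
Gdnf upstream, chr15:7809798-7810047 (plus strand): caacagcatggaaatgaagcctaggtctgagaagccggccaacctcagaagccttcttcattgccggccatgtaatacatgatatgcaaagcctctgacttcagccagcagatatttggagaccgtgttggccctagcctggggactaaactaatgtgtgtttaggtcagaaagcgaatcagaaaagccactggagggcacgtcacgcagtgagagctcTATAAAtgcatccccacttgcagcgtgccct
Csf1 upstream, chr3:107760470-107760719 (minus strand): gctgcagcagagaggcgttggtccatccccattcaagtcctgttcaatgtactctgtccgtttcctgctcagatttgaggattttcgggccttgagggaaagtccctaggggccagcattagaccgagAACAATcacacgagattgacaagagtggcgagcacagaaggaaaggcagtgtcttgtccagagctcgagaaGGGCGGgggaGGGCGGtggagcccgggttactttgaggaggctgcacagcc
Cxcl12 upstream, chr6:117168285-117168534 (plus strand): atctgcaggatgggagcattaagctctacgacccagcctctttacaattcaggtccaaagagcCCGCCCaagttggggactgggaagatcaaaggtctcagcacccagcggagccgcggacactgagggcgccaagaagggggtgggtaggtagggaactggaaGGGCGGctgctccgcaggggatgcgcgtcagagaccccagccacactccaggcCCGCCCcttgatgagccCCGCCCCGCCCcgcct
The Kitl sequence held 3 GC boxes, the last 2 overlapping, and a TATAAA word 25 bp before the start site. The Gdnf sequence, upstream of the first of its start sites, held no GC box and a TATAAA word at −31. The Csf1 sequence held AACAAT at −122, which lay inside the promoter peak of both replicates, and 2 GC boxes. The Cxcl12 sequence held 5 GC boxes, of which 2 overlapped.

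Over the 9 entries, AACAAT was found at Csf1 only, and AACAAAG was found in none of these windows. Of all 31603 RefSeq windows of the same length, 8.48% held AACAAT and 4.68% held AACAAAG. GC boxes were found upstream of Kitl, Csf1, Cxcl12, Fgf2, Kit and Cxcr4, against 39.9% of all windows. That share was not matched for base composition, and the windows of these genes had 56.4% to 70.8% G+C. TATAAA was found upstream of Kitl, Gdnf and Cxcr4, against 11.4% of all windows. CCAAT was found at the second Gdnf start site with an entry alone, against 34.3%. These are matches of letters in one window, not sites shown to be bound.

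Promoter peaks were present at 8 members in replicate 1, against 62.7% of all genes. They were present at 9 members in replicate 2, against 54.7% of all genes. The 8 members with a peak in both replicates compare with 52.2% of all genes, and the single member with none, Gfra2, with 34.8%. A pair of promoter peaks was taken as overlapping when it shared at least 50% of the shorter peak. By this rule 8 of the 10 members had overlapping promoter peaks, against 50% of all genes and 55.8% of protein-coding genes. All 5 ligands and 3 of the 5 receptors were among them.

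Members with CpG-rich start sites had overlapping promoter peaks about as often as CpG-rich genes in general. A start site was taken as CpG-rich when the surrounding 500 bp had at least 50% G+C and an observed over expected CpG ratio of at least 0.6. Of the 8 CpG-rich members, 7 had overlapping promoter peaks and Gfra2 did not, against 86.2% of all CpG-rich genes. Of the other members, Csf1 had overlapping peaks and Csf1r did not, against 17% of all genes without a CpG-rich start site. The Csf1 ratio of 0.595 lay just under the minimum, whereas the window of Csf1r held no CpG at all. The start site window of Gfra2 had 60.8% G+C and a ratio of 0.841, higher than the 0.648 of Kit and the 0.784 of Kitl.

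Kitl had the strongest promoter peak of the ligands. Its q score, 10 times the negative log10 of the false discovery rate, was 423 in replicate 1 and 154 in replicate 2. The log2 ratio of ChIP over input was 5.28 and 3.19, respectively. The peaks, chr10:100015116-100016792 and chr10:100015308-100016602, covered the start site, and their midpoints lay in the 5′ UTR exon. The replicate 1 peak ranked 1070 of 16335 promoter peaks and the replicate 2 peak ranked 1415 of 13617. Its percentile by q score among the promoter peaks of each list was 91.5 ± 2.72 (SD, n = 2).

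Gdnf, the ligand that sustains stem cells, had the widest promoter peak among the members. In replicate 1 a single peak of 5641 bp (chr15:7809407-7815047) had a q score of 245 and a log2 ratio of 4.05. In replicate 2 the same stretch held 2 peaks. The first, of 2919 bp (chr15:7809536-7812454), had a q score of 72.1 and a log2 ratio of 2.29. The second, of 564 bp (chr15:7813313-7813876), had a q score of 34.5 and a log2 ratio of 2.40. The percentile by q score was 75.3 in replicate 1 and 53.0 in replicate 2, the largest gap between replicates among the 8 genes.

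Csf1, the ligand of the macrophage growth factor receptor, kept nearly the same standing by q score in both replicates. Its q scores were 169 and 85.7, and its log2 ratios were 3.78 and 2.64. The percentile by q score was 60.8 and 61.9, whereas by log2 ratio it was 62.2 and 46.4. The replicate 1 peak (chr3:107758610-107760813) was 2204 bp wide and the replicate 2 peak (chr3:107759600-107760776) was 1177 bp wide. Replicate 2 held a further promoter peak at chr3:107757451-107759073, over the first part of the gene, with a q score of 39.5.

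By q score, Cxcl12 and Fgf2 had the weakest overlapping promoter peaks. Cxcl12, a chemokine that guides spermatogonia, reached q scores of 63.1 and 47.7, and its log2 ratios were 3.08 and 2.54. Its peaks were chr6:117168340-117169862 and chr6:117167228-117169136. A separate replicate 1 peak 1.40 kb upstream (chr6:117166904-117167361) had a q score of 30.0003, at the deposited threshold, and was not found in replicate 2. Fgf2, which supports stem cell growth in culture, reached q scores of 59.7 and 39.2, and its log2 ratios were 3.02 and 2.86. Its peaks, chr3:37348018-37349163 and chr3:37348227-37349511, both covered the start site. The percentile by q score was 31.8 ± 0.293 (SD, n = 2) for Cxcl12 and 24.5 ± 8.42 (SD, n = 2) for Fgf2.

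Among the receptors, Fgfr1 had the strongest promoter peak. Its q scores were 215 and 73.7, and its log2 ratios were 4.70 and 3.47, at chr8:25518343-25520027 and chr8:25518572-25519642. A further replicate 2 promoter peak, at chr8:25520157-25521198, had a q score of 36.6 and was not found in replicate 1. By log2 ratio Fgfr1 stood at percentiles 90.1 and 89.7 of the promoter peaks, whereas by q score it stood at 70.1 and 54.1. It was thus higher by enrichment than by score in both replicates.

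Cxcr4, the receptor of CXCL12, had q scores of 117.7 and 60.9 at chr1:128590714-128593893 and chr1:128591782-128593565. Its log2 ratios were 2.79 and 2.89, so that Cxcr4 was the single gene of the 8 with a higher ratio in replicate 2. Kit, the receptor of KITL, reached q scores of 91.2 and 50.3, and its log2 ratios were 3.27 and 2.58. The Kit peaks, chr5:75574454-75576445 and chr5:75574275-75576293, were of nearly equal width, 1992 bp and 2019 bp.

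Csf1r and Gfra2 stood apart from the other receptors. Csf1r, a marker receptor of macrophages, had no promoter peak in replicate 1. In replicate 2 its promoter peak (chr18:61105508-61106224) had a q score of 33.8 and a log2 ratio of 2.73, at percentile 8.92 by q score among promoter peaks. Exactly 939 peaks of the replicate 2 list shared this pair of values, since the scores of weak peaks took few distinct values. Gfra2 (chr14:70890107-70979840) had no peak within 2 kb of its start site, nor within 5 kb. The lists hold no reads, so a site under the threshold cannot be told from an unbound one.

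**Figure D1:**
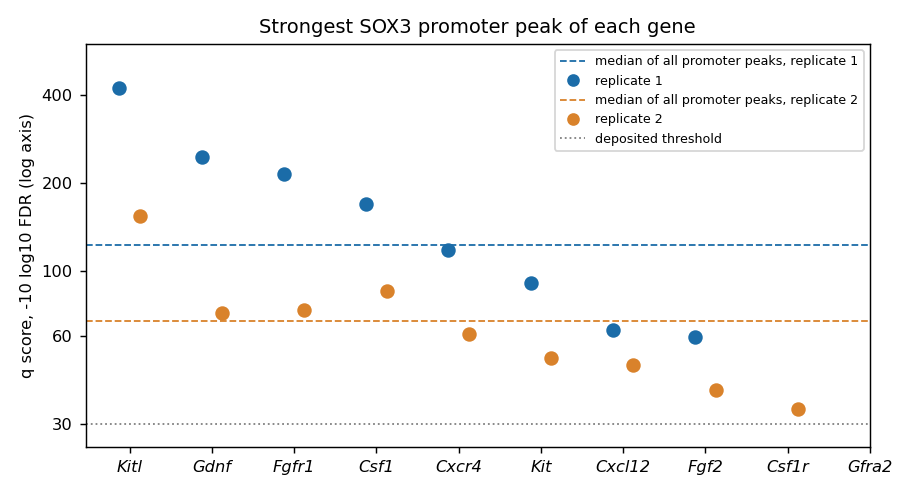
SOX3 q score of the strongest promoter peak of each gene in replicate 1 (blue) and replicate 2 (orange), on a log axis, with the median of all promoter peaks of each replicate (dashed) and the deposited threshold (dotted). Kitl was highest with 423 and 154, Csf1r had a peak in replicate 2 only, and Gfra2 had none.

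Every one of the 8 genes had a higher q score in replicate 1, by 1.32-fold at Cxcl12 to 3.40-fold at Gdnf. The lists as a whole had the same direction. Over all 11747 overlapping promoter pairs the q score was higher in replicate 1 in 95.9%, with a median ratio of 2.31, and the log2 ratio was higher in 90.9%. The median ratio of the 8 genes was 1.96. The percentile within each list was therefore used to set the genes in order.

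In this order Kitl was first, followed by Gdnf, Fgfr1, Csf1, Cxcr4, Kit, Cxcl12 and Fgf2. The ranges of the 2 replicates overlapped between Gdnf (64.2 ± 15.8, SD, n = 2) and Fgfr1 (62.1 ± 11.4). They also overlapped between Fgfr1 and Csf1 (61.3 ± 0.764), so these 3 neighbours could not be ranked. The ranges did not overlap between Csf1 and Cxcr4 (46.4 ± 3.21), between Cxcr4 and Kit (38.0 ± 5.29), between Kit and Cxcl12, or between Cxcl12 and Fgf2. Nor did those of Kitl and Gdnf. Some gaps were small, with Kit at 34.2 in replicate 2 and Cxcl12 at 32.0 in replicate 1. With 2 replicates, ranges that do not overlap do not settle a rank. Kitl, Gdnf, Fgfr1 and Csf1 were above the median promoter peak in both lists, and the other 4 genes were below it. The order by log2 ratio was less stable. Gdnf stood at percentile 72.5 by log2 ratio in replicate 1 and 21.7 in replicate 2, and Cxcr4 stood at 21.01 and 62.5.

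**Figure D2:**
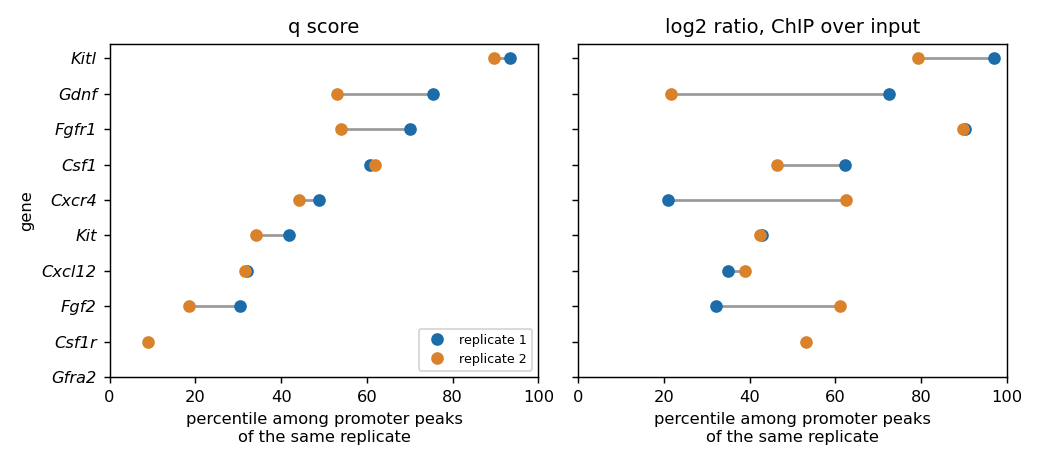
Percentile of each gene's strongest promoter peak among all promoter peaks of the same replicate, by q score (left) and by log2 ratio of ChIP over input (right), with a line joining replicate 1 (blue) to replicate 2 (orange). By q score Kitl stood at 93.4 and 89.6, whereas by log2 ratio Gdnf and Cxcr4 moved by over 40 percentile points between replicates in opposite directions.

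With a q score above 60 required in both replicates, 5 members were left with overlapping promoter peaks, against 35.1% of all genes. These were Kitl, Gdnf, Fgfr1, Csf1 and Cxcr4. Kit and Cxcl12 passed in replicate 1 only, and Fgf2 passed in neither. The members nearest this value were Cxcr4, just above it at 60.9 in replicate 2, and Fgf2, just below it at 59.7 in replicate 1.

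Away from promoters, most peaks of the 10 loci were seen in 1 replicate only. In all, the loci held 59 peaks in replicate 1 and 45 in replicate 2, and 20 and 21 of these were found in the other replicate. Of the promoter peaks, 8 of 9 in replicate 1 and 10 of 12 in replicate 2 were found, against 70.5% and 86.3% of all promoter peaks. Outside all promoters, 6 of 43 replicate 1 peaks (14%) were found in replicate 2, against 16.7% of all such peaks. In the other direction 5 of 27 (18.5%) were found, against 30% of all such peaks. The loci therefore held no larger share of repeated peaks outside promoters than the lists did as a whole. Median q scores of these peaks were 35.7 and 36.6, against 117.7 and 48.97 for the members' own promoter peaks.

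**Figure D3:**
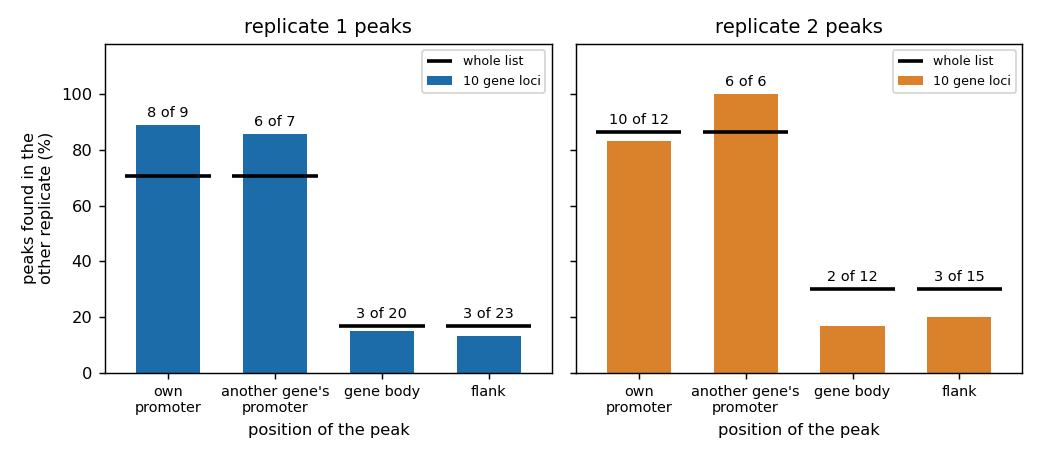
Share of SOX3 peaks at the 10 gene loci that were found in the other replicate, by position, for replicate 1 (left) and replicate 2 (right), with the numbers of peaks above each bar. Black lines give the share over the whole list, of all promoter peaks for the left pair of bars and of all other peaks for the right pair, and both kinds of promoter peak lay far above gene-body and flank peaks.

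Gene-body peaks were found in both replicates at 6 members (Gfra2, Kit, Csf1, Csf1r, Fgf2 and Fgfr1), against 22.3% of all genes. With a q score above 60 no member had them, and with GENCODE M21 start sites 4 did (Gfra2, Csf1r, Fgf2 and Fgfr1). These peaks need not overlap, and longer genes have more room for them. Per length, the 10 gene bodies held 45.8 peaks per Mb in replicate 1 and 26.2 in replicate 2, against 25.7 and 15.1 over all genes. Of the 21 replicate 1 peaks, Csf1 held 6 and Csf1r held 4. Csf1 held 309 per Mb in replicate 1 (6 peaks in 19.4 kb) and 51.5 in replicate 2, and Csf1r held 156 and 78.2. In replicate 1 Fgf2 (53.4) and Fgfr1 (70.2) were also above the value over all genes, and the remaining members were below it. At Csf1r none of the 4 replicate 1 and 2 replicate 2 gene-body peaks was found in the other list. At Gfra2 the replicate 1 peak in an intron (chr14:70929031-70929686, q score 48.5) lay 669 bp before a replicate 2 peak (chr14:70930356-70931137, q score 49.9).

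The 6 replicate 1 peaks that were found again outside promoters lay at Csf1, Fgfr1 and Csf1r. The strongest was in an intron of Fgfr1, 18.7 kb downstream of the start site. Its q scores were 82.5 and 53.2 and its log2 ratios were 4.34 and 3.15, and the peaks shared 1379 bp (chr8:25536748-25538126). The next lay 33.2 kb upstream of Csf1, outside all annotated genes, where the peaks shared 1187 bp (chr3:107793133-107794319). Its q scores were 74.0 and 59.4 and its log2 ratios were 3.06 and 2.42. Both regions were poor in CpG compared with the promoters. Over the shared intervals the observed over expected ratios were 0.273 at Fgfr1 and 0.174 at Csf1. In the 500 bp windows at their start sites they were 0.840 and 0.595. Over the promoter peaks of replicates 1 and 2 they were 0.813 and 0.881 at Fgfr1, and 0.464 and 0.630 at Csf1.

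The central 200 bp of both shared intervals are shown, from RefSeq GRCm38.p6, since they are the strongest repeated peaks at these loci outside promoters. Both are written on the plus strand, and neither held any of the 5 words in this window, so that no letter is in capitals.
Fgfr1 intron, chr8:25537337-25537536 (plus strand): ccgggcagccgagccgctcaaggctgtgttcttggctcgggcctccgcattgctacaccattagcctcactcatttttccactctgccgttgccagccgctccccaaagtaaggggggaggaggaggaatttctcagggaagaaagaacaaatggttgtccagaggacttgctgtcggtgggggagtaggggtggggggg
Csf1 upstream flank, chr3:107793626-107793825 (plus strand): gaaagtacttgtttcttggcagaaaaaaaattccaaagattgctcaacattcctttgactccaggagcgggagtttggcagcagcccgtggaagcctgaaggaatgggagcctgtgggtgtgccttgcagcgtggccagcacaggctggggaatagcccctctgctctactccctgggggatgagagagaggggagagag
Of all peaks outside promoters, 6.67% in replicate 1 and 6.64% in replicate 2 held AACAAT in their central 200 bp, and 4.71% and 4.34% held AACAAAG.

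The other 4 repeated peaks had q scores between 31.4 and 43.3. In Csf1 introns, chr3:107750620-107751086 had q scores of 34.6 and 43.3. The interval chr3:107757451-107757834, 2.88 kb from the start site, had a q score of 31.4 in replicate 1, and its partner was the further replicate 2 promoter peak of 39.5. A peak 45.7 kb from the Csf1 start site, beyond the end of the gene (chr3:107714552-107715037), had q scores of 37.4 and 34.8. A peak 13.4 kb upstream of Csf1r (chr18:61091783-61092314) had q scores of 40.2 and 39.5, which made it the one repeated peak of that locus outside promoters.

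Some of the strongest peaks within 50 kb belonged to promoters of neighbouring genes. Beyond the 3′ end of Fgfr1, the Letm2 promoter had q scores of 665 and 202 and the Nsd3 promoter had 223 and 110. Near Fgf2, the shared promoter of Spata5 and Nudt6 had 489 and 140, and that of Bbs12 and Cetn4 had 205 and 54.4. The Ahcyl1 promoter near Csf1 had 412 and 214, and the Hmgxb3 promoter near Csf1r had 319 and 83.9. All 6 of these peaks were found in both replicates. In replicate 1 the first 5 had higher q scores than the promoter peak of the niche gene beside them, and Csf1r had no promoter peak there. They count among the flank peaks that 6 members had in both replicates, against 69.7% of all genes. Flank peaks of the 2 replicates need not overlap, and at Cxcl12 and Cxcr4 none was found in the other replicate. With a flank of 10 kb only Fgfr1 had one in both, against 36% of all genes. There the replicate 1 peak lay upstream of the gene and the replicate 2 peaks lay beyond its 3′ end, so none was repeated.

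**Figure D4:**
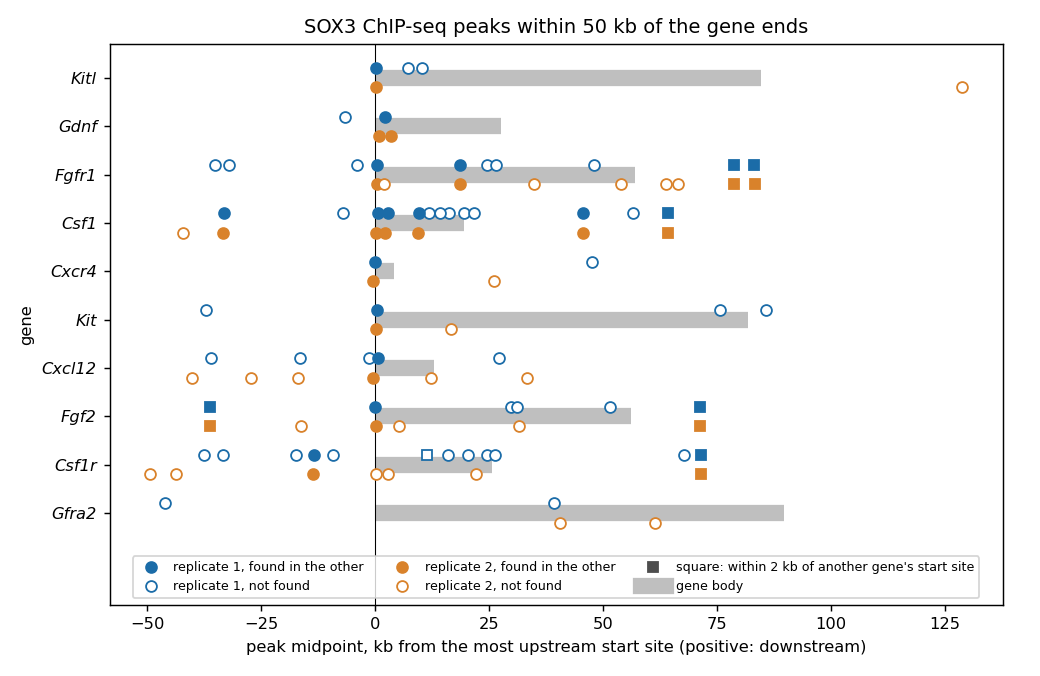
Midpoints of SOX3 peaks at each gene in kb from its most upstream start site, along the direction of transcription, for replicate 1 (blue, upper row) and replicate 2 (orange, lower row), with gene bodies in grey. Filled symbols are peaks found in the other replicate and squares are peaks within 2 kb of another gene's start site, and most filled symbols lie at position 0 or are squares.

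The 10 genes were set beside the other members of their families. Of 75 genes in the 8 ligand and receptor lists, 35 (46.7%) had overlapping promoter peaks, against 50% of all genes. Without the 10 members, 27 of 65 (41.5%) did. Among these 65 genes, overlapping peaks were held by 16 of 24 with a CpG-rich start site, against 86.2% of all such genes. They were held by 11 of 41 without one, against 17% of all such genes. The other ligands reached 14 of 43 (32.6%) and the other receptors 13 of 22 (59.1%).

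In the GDNF family 3 of 4 ligands and 6 of 8 receptors and co-receptors had overlapping promoter peaks, against 50% of all genes. With a CpG-rich start site these were 2 of 2 ligands and 4 of 5 receptors, against 86.2% of all such genes. Without one they were 1 of 2 ligands and 2 of 3 receptors, against 17%. The other ligands with overlapping peaks were Nrtn (neurturin) with q scores of 114 and 39.2 and Pspn (persephin) with 69.9 and 39.2. Ordered here and below by the lower of the q scores of the 2 replicates, the first receptors were Gfra4 (123 and 48.3), Sdc3, a syndecan (53.0 and 47.4), and Ret, the signalling kinase of the family (66.1 and 44.7). Gfra2 and Gfral, the GDF15 receptor, had no promoter peak in either replicate.

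Of the FGF ligands 7 of 22 had overlapping promoter peaks. These were 6 of 11 with a CpG-rich start site and 1 of 11 without one, against 86.2% and 17% of all such genes. By the lower q score they were led by Fgf11 (153 and 80.4) and Fgf13 (86.3 and 56.1), which are intracellular members of the family, and by Fgf18 (86.4 and 52.8), although Fgf22 had 107 in replicate 1. Fgf2 had a lower score in both replicates than each of these 3. A peak was in neither replicate for 5 ligands, among them Fgf14, Fgf20 and Fgf23. Of the FGF receptors and co-receptors 5 of 7 had overlapping peaks. These were 4 of 5 with a CpG-rich start site and 1 of 2 without one. Fgfrl1, which lacks the kinase domain, had q scores of 247 and 80.0, higher than Fgfr1, and Fgfr2 had 69.9 and 42.1. Klb, the β-Klotho co-receptor, had no promoter peak in either replicate.

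Of the ligands of class III receptor tyrosine kinases, the family of KIT, CSF1R and the PDGF receptors, 6 of 8 had overlapping promoter peaks. These were 3 of 3 with a CpG-rich start site and 3 of 5 without one, against 86.2% and 17% of all such genes. By the lower q score Pdgfa (325 and 156) stood just above Kitl (423 and 154), followed by Pdgfb (290 and 126). Pdgfa and Pdgfb encode ligands of the PDGF receptors. Il34, the second ligand of CSF1R, had no promoter peak in either replicate. Of the receptors 3 of 5 had overlapping peaks. These were 2 of 3 with a CpG-rich start site and 1 of 2 without one. Pdgfra had q scores of 102 and 42.1, Pdgfrb had 35.7 and 33.9, and Flt3 had no promoter peak in either.

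The chemokine lists held fewer. Of 14 CXC chemokines 3 had overlapping promoter peaks. Most genes of both lists lacked a CpG-rich start site. Of these, 2 of 12 chemokines and 1 of 6 CXC receptors had overlapping peaks, against 17% of all genes without one. Cxcl12 had the highest lower score, followed by Cxcl1 (37.1 and 37.6) and Cxcl16 (53.9 and 31.5). For 10 of the 14, among them Cxcl10, Cxcl11 and Cxcl13, there was no peak in either replicate. Of 7 CXC receptors 2 had overlapping peaks, Cxcr4 and Ackr3, the scavenger receptor of CXCL12 (148 and 39.2). Cxcr1, Cxcr2 and Cxcr3, receptors of inflammatory chemokines, were among the 4 without a peak.

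The shared signal transducers downstream of these receptors all had promoter peaks. Overlapping peaks were present at 22 of 22 genes, and all 22 had CpG-rich start sites, the class in which 86.2% of all genes had them. By the lower q score the first were Map2k2, a MAP kinase kinase (842 and 368), Pik3ca, a catalytic subunit of PI3 kinase (396 and 178), and Ptpn11, the phosphatase SHP2 (442 and 170). All 3, picked as the highest of the 22 by the lower score, had higher scores in replicate 2 than any of the 10 niche genes. In replicate 1 Pik3ca was below Kitl (423).

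**Figure D5:**
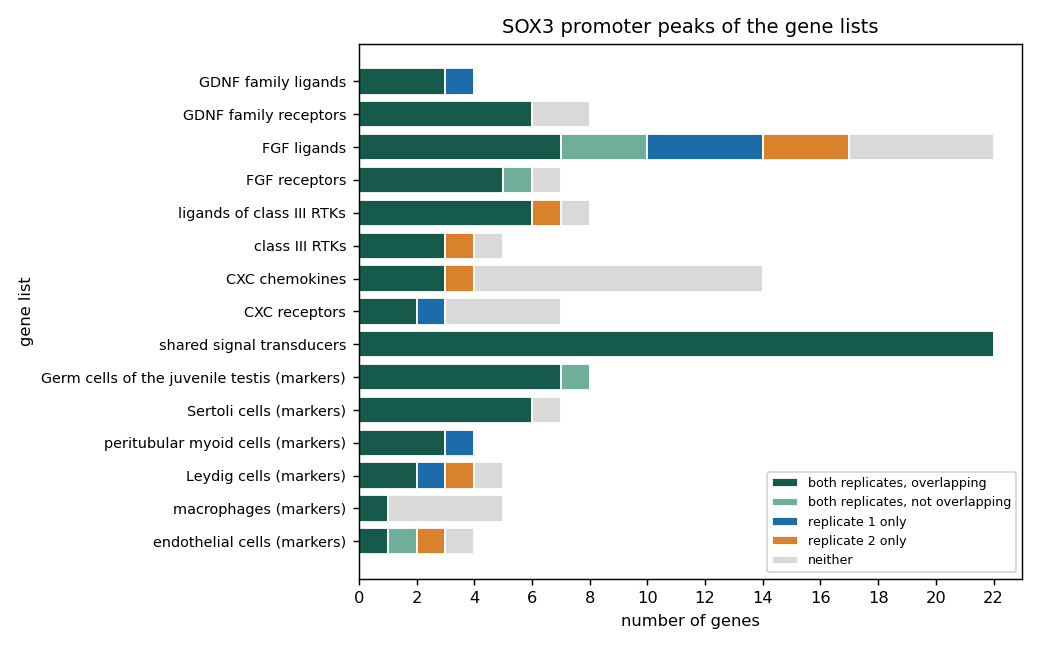
Number of genes of each list by the state of their SOX3 promoter peaks, for the 9 pathway lists and the 6 cell type marker lists (RTKs are receptor tyrosine kinases). All 22 signal transducers had overlapping peaks in both replicates, whereas 10 of 14 CXC chemokines had no peak in either. CpG-rich start sites were present at all 22 signal transducers and at 2 of the 14 chemokines.

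Peak lists hold no expression, so the tissue label could not be checked by marker levels, and only promoter peaks of marker genes are given. Overlapping promoter peaks were present at 7 of 8 germ cell markers, with Ddx4 at q scores of 141 and 58.2. They were present at 6 of 7 Sertoli cell markers, with Sox9 at 373 and 105. The lists for other cells gave 3 of 4 peritubular myoid markers, 2 of 5 Leydig cell markers, 1 of 5 macrophage markers and 1 of 4 endothelial markers. The macrophage marker was Cd68 (835 and 160), whereas Adgre1, Ptprc, Mrc1 and Lyz2 had no promoter peak. Summed over the 5 lists of somatic cells, 13 of 25 genes (52%) had overlapping peaks, beside 50% of all genes. Most of these markers lacked a CpG-rich start site, the class in which 17% of all genes had overlapping peaks. Within this class the counts were 4 of 5 Sertoli, 3 of 4 myoid, 2 of 4 Leydig, 1 of 5 macrophage and 0 of 3 endothelial markers. Of the germ cell markers with a CpG-rich start site, 6 of 6 had overlapping peaks, against 86.2% of all such genes. Without one the germ cell count was 1 of 2.

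The ChIP-nexus lists held 110 and 18 mouse peaks. None of these lay in the promoters, bodies or flanks of the 10 genes in either replicate. Lists of this size can hold a peak near few of the 26180 genes, so this absence says little about the 10 loci.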

How the data were processed

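SOX3 ChIP-seq and ChIP-nexus peak lists of testis at postnatal day 7 were analysed, 2 replicates each. Per the study's methods, the authors aligned reads to mm10 with Novoalign, removed duplicates with Picard, and called ChIP-seq peaks per replicate with USeq at a q score above 30. Reads with several matching places were assigned at random. The methods name a blacklist filter, and its use on these lists is not stated. Each deposited ChIP-seq list gives a p score and q score (10 times the negative log10). The deposited log2 ratio was normalised to input by the authors. These files lack headers, so the column names were taken from the caller's layout and the values. The deposited ChIP-nexus lists have the MACS2 2.1.1 format, with fold enrichment, −log10 p and −log10 q values, of which positions alone were used here. The lists hold no read counts. The study states read totals for each library, and by these replicate 2 of ChIP-seq was the deeper one and the ChIP-nexus libraries had far fewer unique reads. These totals entered no value here. The ChIP-seq lists held 58351 and 38832 peaks.

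Start sites were those of 45756 curated RefSeq transcripts of 26180 genes (GRCm38.p6, the assembly of mm10) on chromosomes 1 to 19, X and Y. A peak was found in the other replicate when it and a single peak there shared at least 50% of the shorter one. Percentiles were taken within each list. The mapping was tested on simulated peaks. Analyses used Python 3.11.15, pandas 2.3.3 and numpy 2.4.6. The 10 genes, the gene lists and the tests were chosen with earlier results of these data known. All 10 genes are named. Of each pathway list, up to 3 genes with the highest lower-of-replicates q score at overlapping promoter peaks are named, and up to 3 in alphabetical order with no promoter peak. Fgf22, and the marker and neighbouring genes given with values, were chosen after their values were seen. Alternatives covered the q score, promoter window, flank, overlap rule, GENCODE M21 start sites and leaving out each replicate.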

Additional observations from a re-analysis of the deposited data

How the results depend on the processing

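No paired analysis was possible because the results come from no test and the replicates belong to one group. The 8 members with a promoter peak in both replicates, and the 8 with overlapping ones, were also 8 with a window of 1 kb or 5 kb or with GENCODE M21 start sites. An overlap of 1 bp gave 8 overlapping members, and 50% of both peaks gave 7. With a q score above 60, both counts were 5, the members with a gene-body peak in both replicates went from 6 to 0, and the repeated peaks of the loci (counted in replicate 1) went from 20 to 10. With a flank of 10 kb, members with a flank peak in both replicates went from 6 to 1 and repeated peaks went to 11. In a single replicate, 8 to 9 members had a promoter peak, 7 had a gene-body peak, and 7 to 9 had a flank peak. The q score above 60 removed a promoter peak from 1 or both lists at 4 members, Kit, Csf1r, Cxcl12 and Fgf2. With GENCODE M21 start sites 4 members had a gene-body peak in both replicates. The lists give no reads, so no counting error could be set on peaks near the threshold, and a missing peak shows a score under it, not absence of SOX3.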
